A study of Mus musculus with 8 samples.

Results

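The 32 genes described here are a chosen set. Most act in fatty acid oxidation, and the others act in ketone body metabolism, are PPAR targets, or bind and store lipid. They were taken by gene symbol from a deposited table of 14247 genes, and all 32 were present and had a mean of at least 10 normalised counts, the level required for testing, which 13503 genes met. By role, 7 genes act in fatty acid activation and entry into mitochondria, 5 are acyl-CoA dehydrogenases, 5 are hydratases, hydroxyacyl-CoA dehydrogenases and thiolases, 3 are auxiliary enzymes for unsaturated fatty acids, 3 carry electrons to the respiratory chain, 3 act in peroxisomal beta-oxidation, 2 in ketone body metabolism, and 4 are targets of PPAR nuclear receptors or bind and store lipid.

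The study examined colonic epithelial crypts of wild-type mice by bulk RNA-seq at zeitgeber times (ZT) 0, 6, 12 and 18 h, counted from lights on, to follow the epithelium over the circadian day. The mice were on a C57BL/6 background and 2 to 4 months old, carried no deletion and received no treatment in these samples. The crypts were scraped from the large intestine after incubation with EDTA, so that colonic epithelium and any cells released with it were sequenced. The stretch of colon taken for each library is not given in the sources used here. Each time point had 2 libraries, replicate 1 and replicate 2, with no batch named in the labels. Reads counted in genes of the table were 14722342 to 25159440 per library. The labels do not say whether the libraries of a time point came from separate mice, and the captions of the study state a larger number of mice in a group than there are libraries here, so the p-values given here measure only the spread between these samples, and in bulk tissue fewer cells of a type cannot be told apart from less RNA per cell.

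In fatty acid oxidation, acyl-CoA synthetases activate a fatty acid, the carnitine shuttle carries it into the mitochondrion, and repeated cycles of dehydrogenation, hydration, a further dehydrogenation and thiolysis release acetyl-CoA. Very long and dicarboxylic chains are shortened in peroxisomes. Acetyl-CoA can be turned into ketone bodies. Colonocytes oxidise butyrate and other fatty acids made by the microbiota as their main fuel, and PPAR receptors, which are bound by fatty acids, drive many of these genes.

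The label of the samples was checked against epithelial and other markers. Each of the 8 epithelial markers examined was at 5219.9 normalised counts or more in each library. Of 9 adipocyte genes examined, Adipoq, Plin1, Lep, Retn, Cfd and Fabp4 were not in the table. The other 3, Cidec, Lpl and Pck1, were present, with means of 281, 616 and 2663 normalised counts. The summed level of 7 fibroblast markers lay between 6.43 and 715 normalised counts in 7 libraries and was 2639 in ZT12 replicate 1, in which 7 smooth muscle markers also summed to 5291 against 544 to 1354 elsewhere. In ZT0 replicate 2, 6 B and plasma cell markers summed to 1863 against 117 to 973 elsewhere. Mitochondrially encoded genes took 6.68% to 22.2% of the reads counted in genes of the table. The clock output gene Dbp passed the test for a 24 h rhythm (adjusted p = 4.01e-05, limma with Benjamini-Hochberg adjustment). It had 21.5 to 26.8 normalised counts at ZT0 and 1113 to 1593 at ZT12, so it separated those time points. Summed over 6 clock reference genes, levels were 5118 and 4347 normalised counts at ZT6 and 4844 and 4605 at ZT18. These sums overlap, so they cannot tell ZT6 from ZT18.

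None of the 32 genes passed the test for a 24 h rhythm, in which a cosine was fitted to log2(normalised count + 1) by limma and p-values took a Benjamini-Hochberg adjustment over all genes tested. At an adjusted p under 0.05 the call was made for 0 of 32 genes, against 0.118% of all genes tested, and at an unadjusted p under 0.05 for 2 of 32, Acadl and Acsl3, against 9.15%. A limma test of any difference over the 4 time points also called 0 of 32 (0.0889% of all genes), and 2 of 32, Fabp2 and Acadl, at an unadjusted p under 0.05 (7.03% of all genes). An exact rank test against a 24 h cosine, made in the manner of JTK, gave 0 of 32 genes with an unadjusted p under 0.05, against 2.06% of all genes. On recovered reads edgeR called 0 of the 32 genes in either test, and DESeq2 called Fabp2 alone of the 32, in the test over the 4 time points (adjusted p = 0.0190).

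The 6 comparisons between time points likewise called none of the 32 genes by limma at an adjusted p under 0.05. The share of all genes called was 0.0444% for ZT6 against ZT0, 0.0667% for ZT12 against ZT0, 0% for ZT18 against ZT0, again 0% for ZT12 against ZT6, 0.0444% for ZT18 against ZT6 and 0.0296% for ZT18 against ZT12. At an unadjusted p under 0.05, 2 of the 32 were past the threshold for ZT6 against ZT0 (4.13% of all genes) and 2 for ZT12 against ZT0 (9.96%). The number was 1 for ZT18 against ZT0 (5.02%), and then 3 for ZT12 against ZT6 (6.78%), 2 for ZT18 against ZT6 (6.71%) and 2 for ZT18 against ZT12 (9.03%). These shares lie near those of all genes. The unadjusted calls belonged to 5 genes, Fabp2, Acadl, Acsl3, Acsl1 and Acaa1a.

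Beside all genes tested, the 32 genes had low medians of variation, over the day and between libraries. The genes tested were not matched to the 32 in expression level. The part of level in these low medians was therefore not tested. The median fitted amplitude, the height of the cosine above its mean on the log2 scale, was 0.14 for the 32 genes and 0.23 for all genes tested, and the median SD within time points was 0.24 against 0.29 on the same scale. From ZT0 to ZT6 the median log2 difference was 0.14, with 26 genes higher and 6 lower in mean, beside 0.01 and 51.0% higher for all genes. Scaling to reads outside the mitochondrial genome left 23 of the 32 higher at ZT6, and without ZT0 replicate 1 the median log2 difference was 0.04. From ZT6 to ZT18 the median log2 difference was -0.16, with 9 genes higher and 23 lower, and it became 0.10 without ZT18 replicate 1. The direction of the difference between ZT6 and ZT18 thus rested on a single library.

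**Figure D1:**
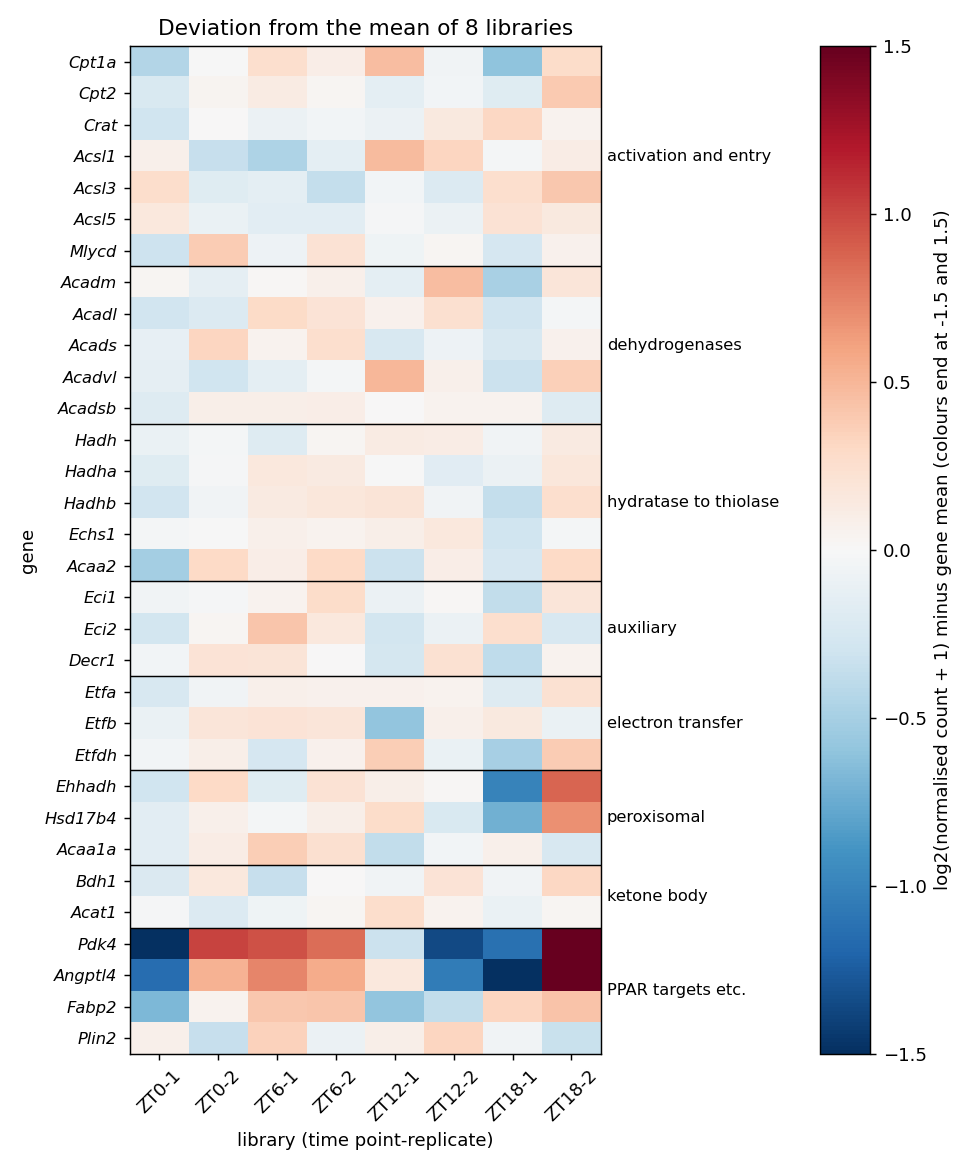
Deviation of log2(normalised count + 1) from the gene's mean over 8 libraries (colour, red above and blue below the mean) for the 32 genes (rows, grouped by role) in each library (columns). Most rows are pale, and the deepest colours are those of Pdk4 and Angptl4, with Ehhadh and Hsd17b4 low in ZT18 replicate 1 and high in ZT18 replicate 2.

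Levels per kilobase of exon spanned the range from 6162 normalised counts per kb for Fabp2 to 24.7 for Angptl4. The length took all annotated exons of a gene together, whether or not they are used in the colon. The order of the genes therefore depends in part on the annotation. After Fabp2 came Etfb (2636), Acads (1695), Acaa2 (1560.3), Etfa (1395), Acsl3 (1261) and Acadl (1109). The lowest after Angptl4 were Acsl1 (53.5), Acadsb (56.4), Pdk4 (87.4) and Eci2 (115). The genes with the lowest levels were not those of a single role.

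**Figure D2:**
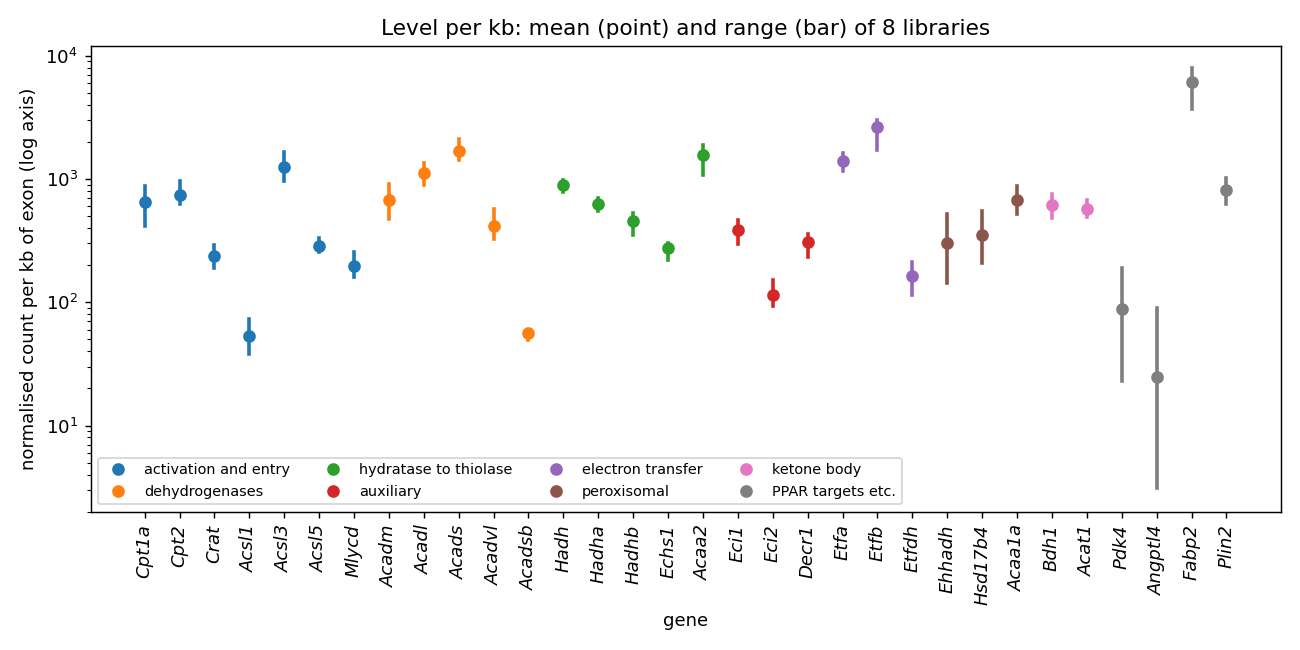
Level of each of the 32 genes in normalised counts per kb of exon (vertical, log axis), with the mean of 8 libraries as a point and their range as a bar. Fabp2 is highest at 6162 per kb, and the longest bars are those of Angptl4, 28.5-fold from lowest to highest, and Pdk4, 8.20-fold.

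Promoter windows are shown for 5 of the genes on which the results below turn: Fabp2, which had the smallest p over the 4 time points, Pdk4 and Ehhadh, which differed most between the ZT18 libraries among genes with a window, Cpt1a, the gate of mitochondrial entry, and Plin2. They are RefSeq sequences of GRCm38.p6 from 250 bases before to 50 after a transcription start, written 5′ to 3′ on the gene's strand. Capitals mark matches on either strand to AGGTCA, the core of nuclear receptor sites, to CACGTG, the E-box bound by the clock factors, and to CCAAT.
Fabp2 (chr3:122894822-122895121, plus strand): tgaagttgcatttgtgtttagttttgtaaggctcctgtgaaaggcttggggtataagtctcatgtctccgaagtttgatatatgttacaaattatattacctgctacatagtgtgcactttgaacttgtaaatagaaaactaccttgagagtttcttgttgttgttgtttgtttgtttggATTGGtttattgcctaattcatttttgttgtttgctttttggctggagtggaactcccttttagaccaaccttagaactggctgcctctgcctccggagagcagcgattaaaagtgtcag
Pdk4 (chr6:5496229-5496528, minus strand): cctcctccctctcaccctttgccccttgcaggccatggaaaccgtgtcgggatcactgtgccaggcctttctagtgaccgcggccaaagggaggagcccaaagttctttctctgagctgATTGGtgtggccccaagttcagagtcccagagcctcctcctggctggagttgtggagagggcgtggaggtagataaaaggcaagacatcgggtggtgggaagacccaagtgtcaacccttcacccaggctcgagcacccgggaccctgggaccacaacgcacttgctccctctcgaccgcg
Ehhadh (chr16:21787785-21788084, minus strand): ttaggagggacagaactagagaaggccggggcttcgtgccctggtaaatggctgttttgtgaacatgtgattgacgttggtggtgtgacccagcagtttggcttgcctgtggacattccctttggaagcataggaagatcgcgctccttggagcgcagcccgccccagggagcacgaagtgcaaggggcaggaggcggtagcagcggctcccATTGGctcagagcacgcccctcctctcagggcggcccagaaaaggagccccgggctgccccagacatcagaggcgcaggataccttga
Cpt1a (chr19:3323051-3323350, plus strand): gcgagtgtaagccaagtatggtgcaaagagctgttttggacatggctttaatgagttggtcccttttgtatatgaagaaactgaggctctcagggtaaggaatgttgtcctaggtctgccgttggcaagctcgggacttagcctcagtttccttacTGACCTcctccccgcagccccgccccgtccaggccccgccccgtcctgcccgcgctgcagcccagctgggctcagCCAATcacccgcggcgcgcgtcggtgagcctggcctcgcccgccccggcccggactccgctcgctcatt
Plin2 (chr4:86670010-86670309, minus strand): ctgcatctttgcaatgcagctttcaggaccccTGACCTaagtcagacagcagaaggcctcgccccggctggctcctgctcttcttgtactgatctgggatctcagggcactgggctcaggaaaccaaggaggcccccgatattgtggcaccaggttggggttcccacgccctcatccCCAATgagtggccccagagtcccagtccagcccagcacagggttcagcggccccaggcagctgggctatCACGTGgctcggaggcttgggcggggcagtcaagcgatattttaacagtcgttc
Windows were matched for 26 of the 32 genes and numbered 28, with a pair each for Acsl1 and Bdh1. AGGTCA was found in 5 of the 28 windows (17.9%), those of Acadm, Acadvl, Cpt1a, Echs1 and Plin2, and in 16.3% of 32851 windows of all genes. CACGTG was found in 1 window, that of Plin2 at position -4 from the start, and in 7.15% of all windows. CCAAT was found in 15 of 28 windows (53.6%) and in 37.4% of all windows. The direct repeat AGGNCANAGGNCA, whose letters contain those of the shorter motif where N is T, and the D-box TTATGTAA were found in 0 of the 28 windows and in 0.381% and 0.938% of all windows. A match describes the letters only.

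The acyl-CoA synthetases Acsl1, Acsl3 and Acsl5 attach coenzyme A to long-chain fatty acids. Acsl3 on chromosome 1 (78657825 to 78707743), the synthetase most associated with lipid droplets, had 6501 and 4763 normalised counts at ZT0, then 4903 and 4221 at ZT6, 5253 and 4709.7 at ZT12 and finally 6448 and 7173 at ZT18. Both ZT18 libraries lay above those of ZT6 and ZT12, whereas the ZT0 libraries overlapped those of each other time point. The fitted peak was at 19.0 h with an amplitude of 0.30 (limma adjusted p = 0.515), and ZT18 exceeded ZT6 by 0.58 ± 0.20 (SE, log2; adjusted p = 0.667). Exons of Acsl3 share 244 bases with Utp14b on the same strand, so its reads may be split.

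Acsl1 on chromosome 8 (46471037 to 46536051) had 578 and 430.0 normalised counts at ZT0, then 399 and 495 at ZT6, 762 and 688 at ZT12 and finally 537 and 594 at ZT18. The ZT12 libraries were the highest of the 8. The difference of ZT12 from ZT6 was 0.70 ± 0.22 (SE, log2; limma adjusted p = 0.705), and the fitted peak lay at 14.2 h with an amplitude of 0.32 (adjusted p = 0.567). Acsl5 ranged from 1243 to 1606 normalised counts over the 8 libraries, with a fitted amplitude of 0.17 and a peak at 18.9 h (adjusted p = 0.616). The 3 synthetases thus had their highest means at ZT12 for Acsl1 and at ZT18 for Acsl3 and Acsl5. Exons of Acsl1 and Acsl5 overlap genes on the opposite strand, and strand use in counting is not given in the sources used here.

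Cpt1a on chromosome 19 (3322334 to 3385733), which makes acylcarnitines at the outer mitochondrial membrane and is the controlled step of entry, had 3566 and 4837 normalised counts at ZT0, then 5786 and 5209 at ZT6, 6656 and 4656 at ZT12 and finally 3201 and 5884 at ZT18. The ZT18 libraries included the lowest and the second highest of the 8. The fitted cosine had an amplitude of 0.27 and its top at 9.42 h (limma adjusted p = 0.682). Cpt2, which returns the acyl group to coenzyme A inside, ranged from 1497 to 2308 and had the smallest amplitude of the 32 genes, 0.01 (adjusted p = 0.996). Crat, the short-chain carnitine acetyltransferase, ranged from 1029 to 1568, and Mlycd, which degrades the Cpt1a inhibitor malonyl-CoA, from 472 to 757.

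The acyl-CoA dehydrogenases carry out the first oxidation of each cycle and divide the substrates by chain length. Acadl on chromosome 1 (66830839 to 66863277), for long chains, had 1798 and 1905 normalised counts at ZT0, then 2688 and 2527 at ZT6, 2302 and 2599 at ZT12 and finally 1806 and 2160.3 at ZT18. All 4 libraries of ZT6 and ZT12 lay above all 4 of ZT0 and ZT18. The fitted peak was at 9.01 h with an amplitude of 0.28, the smallest p of the 32 genes in the cosine test (limma adjusted p = 0.483). ZT6 exceeded ZT0 by 0.49 ± 0.17 (SE, log2) and ZT12 exceeded ZT0 by 0.40 ± 0.17, each short of the threshold after adjustment (adjusted p = 1.000 and 0.481).

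Acads, the short-chain enzyme that acts on butyrate, had the highest level of the 5 per kb and ranged from 3223 to 4754 normalised counts. Its cosine had an amplitude of 0.17 and its top at 2.86 h (limma adjusted p = 0.697). Acadm, for medium chains, lay between 1849.8 (ZT18 replicate 1) and 3561 (ZT12 replicate 2). Acadvl, for very long chains, lay between 877 (ZT18 replicate 1) and 1547 (ZT12 replicate 1), with an amplitude of 0.26 and a peak at 12.8 h (adjusted p = 0.626), and its exons share 1151 bases with Dvl2 on the opposite strand. Acadsb, for branched short chains, ranged from 352 to 431, the smallest ratio of highest to lowest among the 32 genes (1.22).

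Hadha and Hadhb form the trifunctional protein of the inner membrane, and Hadh, Echs1 and Acaa2 are matrix enzymes of the later steps. Hadha had 4774 and 5333 normalised counts at ZT0, then 6063 and 5933 at ZT6, 5378 and 4825 at ZT12 and finally 5087 and 6100.5 at ZT18. The ZT6 libraries lay above those of ZT0 and ZT12 and within the range of ZT18. Hadhb ranged from 2297 to 3515, Hadh from 3887 to 4879.6, Echs1 from 1833 to 2528 and Acaa2 from 1628 to 2861. For Acaa2, the thiolase and the highest of the 5 per kb, the cosine had an amplitude of 0.09 and its top at 5.87 h (limma adjusted p = 0.949). All 5 of these genes were higher in replicate 2 than in replicate 1 at ZT0 and at ZT18.

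Eci1 and Eci2 shift double bonds and Decr1 reduces them, so that unsaturated fatty acids can enter the cycle. Eci1 ranged from 627 to 980.2 normalised counts with an amplitude of 0.13 and a peak at 5.97 h (limma adjusted p = 0.803), Eci2 from 518 to 838 and Decr1 from 907 to 1388. All 3 had higher means at ZT6 than at ZT0, ZT12 or ZT18. Etfa and Etfb, the subunits of the flavoprotein that takes electrons from the dehydrogenases, and Etfdh, which hands them to ubiquinone, ranged from 2147 to 2989, from 2011 to 3494 and from 858 to 1580.4. The lowest Etfb value was that of ZT12 replicate 1, and the cosine of Etfb had an amplitude of 0.17 and its top at 1.96 h (adjusted p = 0.769). Exons of Etfb share 617 bases with Gm45233 on the same strand, so its level may be uncertain. Of the 32 genes, 12 have exons that overlap another annotated gene.

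Ehhadh and Hsd17b4 are the bifunctional enzymes of the peroxisome and Acaa1a its thiolase. Ehhadh on chromosome 16 (21761287 to 21787807) had 690.3 and 1048 normalised counts at ZT0, then 752 and 988 at ZT6, 909 and 861 at ZT12 and finally 426 and 1559 at ZT18. The lowest and the highest library were both of ZT18. Hsd17b4 had 1042 and 1223 at ZT0, then 1133 and 1233 at ZT6, 1406 and 987 at ZT12 and finally 705 and 1864 at ZT18, with the extremes in the same libraries. The fitted amplitudes were 0.05 and 0.04 (limma adjusted p = 0.991 for both).

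Acaa1a did not share that order. It had 2664 and 3207 normalised counts at ZT0, then 3837 and 3491 at ZT6, 2300.5 and 2869.6 at ZT12 and finally 3119 and 2507 at ZT18. The ZT6 libraries were the highest of the 8. Its difference of ZT12 from ZT6 was -0.51 ± 0.19 (SE, log2; limma adjusted p = 0.716), and the fitted peak was at 4.29 h with an amplitude of 0.22 (adjusted p = 0.651). Exons of Acaa1a share 290 bases with Myd88 on the opposite strand.

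Of the ketone body enzymes, Acat1 condenses acetyl-CoA and also acts in the breakdown of ketone bodies, and Bdh1 interconverts acetoacetate and beta-hydroxybutyrate. Bdh1 had 2047 and 2658 normalised counts at ZT0, then 1881 and 2399.9 at ZT6, 2298 and 2752 at ZT12 and finally 2299 and 2953 at ZT18. Replicate 2 was the higher library at each of the 4 time points, and the time points overlapped. The cosine had an amplitude of 0.16 and its top at 16.7 h (limma adjusted p = 0.750). Acat1 ranged from 1847 to 2557, with an amplitude of 0.14 (adjusted p = 0.709).

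Among the PPAR targets and lipid binding genes, Fabp2 on chromosome 3 (122895072 to 122899506), the intestinal fatty acid binding protein that carries fatty acids through the enterocyte, had 3578 and 5878 normalised counts at ZT0, then 7521 and 7621 at ZT6, 3786 and 4409 at ZT12 and finally 7109 and 7669 at ZT18. All 4 libraries of ZT6 and ZT18 lay above all 4 of ZT0 and ZT12. Over the 4 time points limma gave an adjusted p of 0.574, the smallest of the 32 genes, and DESeq2 gave an adjusted p of 0.0190. By contrast the 24 h cosine had an amplitude of 0.09 (adjusted p = 0.975), with the high time points 12 h apart.

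The differences of Fabp2 between neighbouring time points were 0.72 ± 0.23 from ZT0 to ZT6 (SE, log2), -0.89 ± 0.23 from ZT6 to ZT12 and 0.85 ± 0.23 from ZT12 to ZT18. Their limma adjusted p-values were 1.000, 0.697 and 0.514. ZT12 differed from ZT0 by -0.17, with an interval at the 95% level of -0.70 to 0.36, and ZT18 from ZT6 by -0.04, with an interval of -0.57 to 0.49. No shorter rhythm was fitted.

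Plin2, which coats lipid droplets, ranged from 2207 in ZT0 replicate 2 to 3572 in ZT6 replicate 1, with an amplitude of 0.24 and a peak at 9.06 h (limma adjusted p = 0.621). Pdk4 on chromosome 6 (5483351 to 5496309), the kinase that holds back pyruvate dehydrogenase when fatty acids are burnt, had 80.5 and 469 normalised counts at ZT0, then 448 and 416 at ZT6, 185 and 89.9 at ZT12 and finally 106 and 659.5 at ZT18. Both ZT6 libraries were high and both ZT12 libraries low, while ZT0 and ZT18 each held a low and a high library. Its amplitude, 0.46, was the largest of the 32 genes (adjusted p = 0.882). Angptl4 on chromosome 17 (33773750 to 33781830), a secreted inhibitor of lipoprotein lipase, had 24.8 and 81.1 at ZT0, then 93.6 and 82.7 at ZT6, 62.7 and 26.5 at ZT12 and finally 11.1 and 316 at ZT18. Its libraries at ZT18 lay at both ends of the range.

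**Figure D3:**
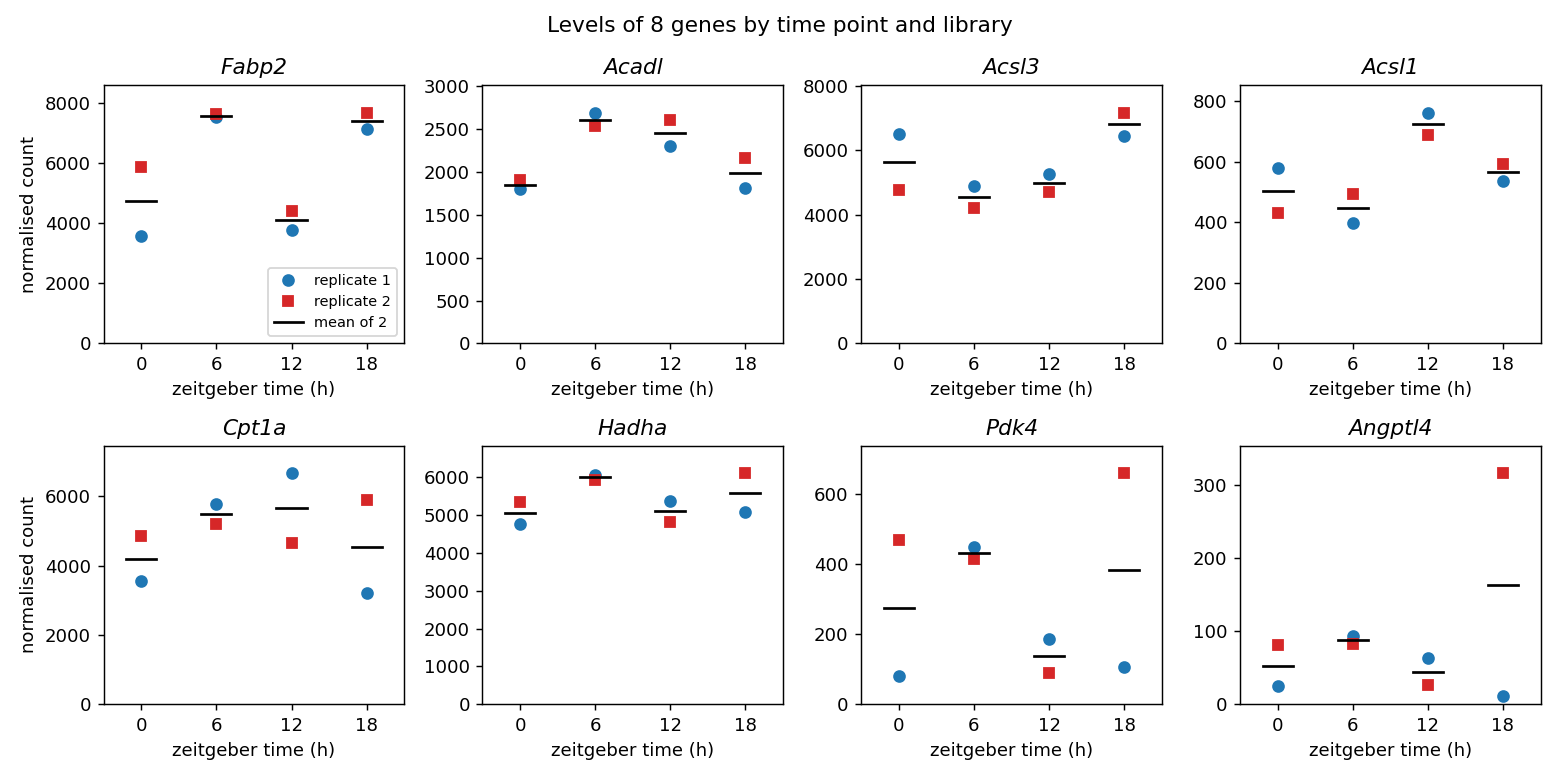
Normalised counts (vertical, from 0) of 8 genes against zeitgeber time (horizontal, h), with replicate 1 as blue circles, replicate 2 as red squares and the mean of the 2 libraries as a black line. Fabp2 is high at ZT6 and ZT18 (7109 to 7669) and lower at ZT0 and ZT12 (3578 to 5878), whereas Pdk4 and Angptl4 each have a low and a high library at ZT0 and at ZT18.

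For several of these genes, libraries of the same time point lay farther apart than the time points did. At ZT18, 25 of the 32 genes were higher in replicate 2 than in replicate 1, against 50.4% of all genes tested, with a median log2 difference of 0.31 against 0.01. At ZT0 the number was also 25 of 32, against 50.6%, with a median of 0.24 against 0.01. At ZT6 and at ZT12 it was 17 of 32, against 50.2% and 49.6%, near the shares of all genes. With 1 library on each side these comparisons have no replicate check. ZT18 replicate 1 was the lowest of the 8 libraries for 11 genes and ZT0 replicate 1 for 10, and ZT18 replicate 2 was the highest for 14.

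Few of the genes differed by 2-fold or more within a time point. At ZT18 they were 4 of 32, against 18.1% of all genes: Angptl4 (28.5-fold), Pdk4 (6.22-fold), Ehhadh (3.66-fold) and Hsd17b4 (2.64-fold), each higher in replicate 2. At ZT0 they were 2, Pdk4 (5.83-fold) and Angptl4 (3.27-fold), again higher in replicate 2, against 14.9% of all genes. At ZT12 Pdk4 and Angptl4 passed that size with replicate 1 higher (2 of 32, 10.4% of all genes). At ZT6 none did (0 of 32, 7.09% of all genes). The shares of all genes were likewise not matched to the 32 in expression level. Just below the limit at ZT18 were Cpt1a and Etfdh, at 1.84-fold each. The 7 genes that were lower in ZT18 replicate 2 were Eci2, Acaa1a, Plin2, Crat, Acadsb, Etfb and Acsl5, by -0.49 to -0.07 on the log2 scale.

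**Figure D4:**
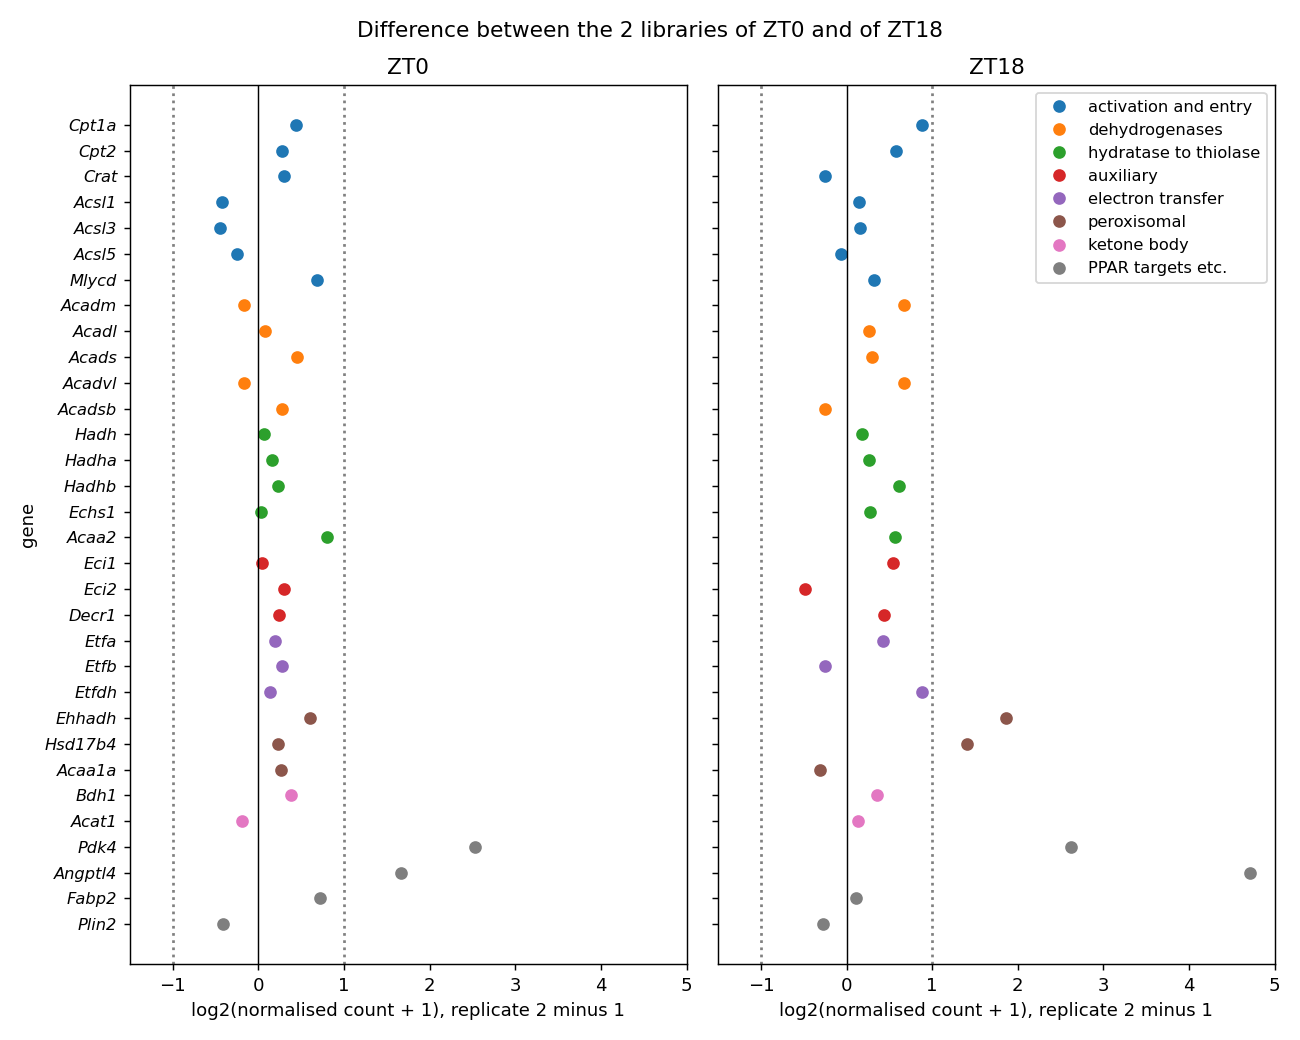
Difference of replicate 2 from replicate 1 in log2(normalised count + 1) (horizontal) for each of the 32 genes (vertical, coloured by role) at ZT0 and at ZT18, with dotted lines at a 2-fold difference. At both time points 25 points lie to the right of 0, and Pdk4 and Angptl4 are the farthest to the right.

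A principal component analysis of the 32 genes placed 73.1% of their variance on the first component, on which ZT18 replicate 1 (-2.88) and ZT18 replicate 2 (3.20) stood at the ends and ZT0 replicate 1 lay near the low end (-2.10). Pdk4 and Angptl4 vary most, so this component largely carries those genes.

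Other genes of these pathways were examined in 6 lists, of which 83 genes outside the module were tested. None of the 83 passed limma at an adjusted p under 0.05 in the 24 h cosine test or over the 4 time points, and 7 and 4 had an unadjusted p under 0.05. DESeq2 called Slc25a20 for the cosine and Pdk1 over the 4 time points, and no other of the 83 in those tests. The 5 with the smallest p for the cosine among genes with a mean of at least 50 were Pdk1, Slc25a20, Rxra, Slc16a1 and Pdk3. Slc25a20, the carrier that moves acylcarnitines across the inner membrane between Cpt1a and Cpt2, had 3195 and 3473 normalised counts at ZT0, then 4547 and 4185 at ZT6, 3928 and 4289 at ZT12 and finally 3223 and 2920.3 at ZT18. As for Acadl, all 4 libraries of ZT6 and ZT12 lay above the other 4, with a fitted peak at 8.04 h and an amplitude of 0.30 (limma adjusted p = 0.431; DESeq2 adjusted p = 0.0427).

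Pdk1, a relative of Pdk4, had 1203 and 884 normalised counts at ZT0, then 1407 and 1268 at ZT6, 1525 and 1691 at ZT12 and finally 845 and 859.8 at ZT18. The ZT12 libraries were the highest and the ZT18 libraries the lowest. The cosine of Pdk1 had an amplitude of 0.45 and its top at 8.97 h (limma adjusted p = 0.397), and DESeq2 gave an adjusted p of 0.0262 over the 4 time points and of 0.0140 for ZT18 against ZT12. Slc16a1, which carries butyrate and ketone bodies across the membrane, ranged from 7944 to 8917 at ZT0 and from 5743 to 6179 at ZT12 (cosine peak at 1.91 h, limma adjusted p = 0.494). Rxra, the partner of PPAR receptors, and Pdk3 had adjusted p-values of 0.484 and 0.498.

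Several pathway genes outside the module were, like Pdk4 and Angptl4, higher in replicate 2 than in replicate 1 at ZT0 and at ZT18. They are named here because of their values. Of the 83 genes, 57 were higher in ZT18 replicate 2 than in replicate 1 (median log2 difference 0.27), beside 50.4% of all genes. By list the number was 16 of 18 for other peroxisomal genes (0.51), 12 of 16 for PPAR receptors and other targets (0.14), 10 of 15 for other synthetases and uptake (0.27), 10 of 17 for other beta-oxidation and transport (0.04), 5 of 10 for other lipid droplet genes (0.18) and 4 of 7 for other ketone body genes (0.43). Acaa1b, a peroxisomal thiolase, had 25.8 and 251 at ZT0 and 20.5 and 442 at ZT18, and Vnn1, a known PPAR target, 2.98 and 87.7 at ZT0 and 0 and 253 at ZT18, where a count of 0 allows up to 2.56. Ppara, the receptor itself, had 61.6 and 150.2 at ZT0 and 88.9 and 441 at ZT18, and 709 in ZT12 replicate 1. Oxct1, which uses ketone bodies, had the opposite order, with 6603 and 3622 at ZT0 and 6150.2 and 3497 at ZT18.

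Among genes of position along the gut, examined after these values were seen, Hoxb13, which marks the distal hindgut, had 6405 and 3235 normalised counts at ZT0, then 3870 and 4086 at ZT6, 3538 and 5682 at ZT12 and finally 6927 and 2508 at ZT18. The 3 libraries with the highest Hoxb13, replicate 1 of ZT0, replicate 2 of ZT12 and replicate 1 of ZT18, were the 3 with the lowest Pdk4 and the lowest Angptl4. Hoxd13 was highest in these 3 libraries too. Hoxa13 was not, with 1087 normalised counts in ZT6 replicate 1 and 902 in ZT0 replicate 1. Slc10a2, the bile acid transporter of the ileum, had 124 and 1300.3 at ZT0, then 1552 and 1979 at ZT6, 4862 and 451 at ZT12 and finally 59.8 and 3417 at ZT18, and was lowest in the same 3 libraries. From replicate 1 to replicate 2 of ZT18, all 3 distal Hox genes examined (Hoxa13, Hoxb13 and Hoxd13) were lower and all 4 genes of the ileum and proximal colon (Hoxb6, Sis, Slc10a2 and Cyp2c55) higher. At ZT0, likewise from replicate 1 to replicate 2, the same 3 Hox genes were lower and the same 4 genes higher. The 3 genes of the adipocyte list in the table (Cidec, Lpl and Pck1) summed to 2592 and 4029 normalised counts in the ZT0 libraries and to 3071 and 5419 in those of ZT18. Most of this sum was Pck1 (mean 2663), and Cidec is also in the lipid droplet list. The other adipocyte genes examined were not in the table, so the sum cannot show how many adipocytes were present. Of 10 colonocyte markers, 5 were higher in replicate 2 at ZT0 (median log2 difference -0.06) and 2 at ZT18 (-0.62), and of 8 stem and proliferation markers 2 were higher at ZT0 (-0.26) and 8 at ZT18 (0.43). The summed fibroblast markers were 17.9 and 715 normalised counts at ZT0 against 35.9 and 6.43 at ZT18, and the mitochondrial share of reads was 12.2% and 19.8% at ZT0 against 22.2% and 9.80% at ZT18. The part of these measures in the differences between libraries was not tested.

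**Figure D5:**
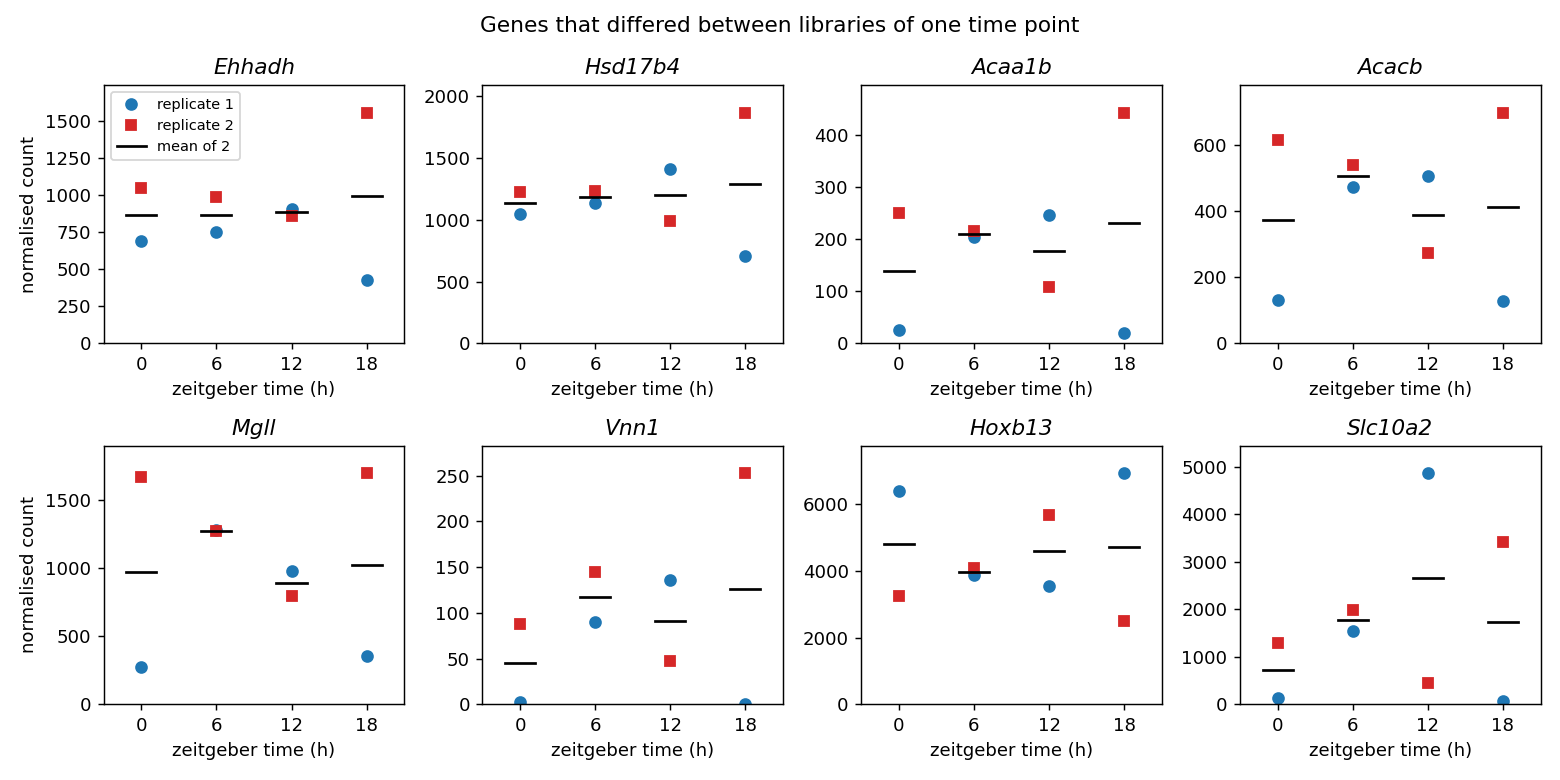
Normalised counts (vertical, from 0) against zeitgeber time (horizontal, h) for Ehhadh, Hsd17b4, the pathway genes Acaa1b, Acacb, Mgll and Vnn1, and the position genes Hoxb13 and Slc10a2, with replicate 1 as blue circles, replicate 2 as red squares and the mean of the 2 libraries as a black line. At ZT0 and ZT18 replicate 2 is the higher library for each gene other than Hoxb13, where replicate 1 is higher (6927 against 2508 at ZT18).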

How the data were processed

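RNA-seq was carried out on colonic crypts of wild-type mice at 4 zeitgeber times with 2 libraries each. Per the labels, reads were aligned with STAR to GRCm38 and analysed with DESeq2; the annotation, the counting of reads and strand use are not given in the sources used here, and the library kit named in the labels differs from that of the study's methods. The deposited table holds a signal per gene and library, which the authors made by dividing read counts by a size factor per library and which is called the normalised count here. Its columns for the authors' own comparison (log2 fold change, standard error, test score, p-value and adjusted p-value) were not used. The lowest mean in the table was 6.55, and lower genes were not analysed here. Reads were recovered as whole numbers from the spacing of low values (100% of values whole, within 0.05 of a read).

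Genes with a mean of at least 10 were tested on log2(normalised count + 1) with limma 3.58.1 (R 4.3.3; empirical Bayes with an intensity trend), as a 24 h cosine, as 4 time points and as 6 contrasts over all 8 libraries, with Benjamini-Hochberg adjustment and a threshold of 0.05. On this scale, differences of low genes come out too small. Alternatives were other pseudocounts, filters and scalings, a fit without the trend, a replicate block, an exact rank test, edgeR 4.0.16 and DESeq2 1.42.0 on recovered reads, and leaving out libraries. Depth, as recovered reads summed over genes of the table, was 14722342 to 25159440 reads, and there were 2 libraries per time point. Intervals of differences come from the limma fit and the spread between libraries, and limits for a count of 0 (3 reads) cover counting error only. Genes with full statistics were the 8 with the smallest cosine p, those with the largest and the smallest amplitude, any called gene, and the highest per kb of each role. Positions and exon lengths are from GENCODE M21 of GRCm38. The members and the lists were chosen with earlier results of these data known. A gene of the pathway lists is not reported here.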

Additional observations from a re-analysis of the deposited data

How the results depend on the processing

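No gene of the 32 was called at an adjusted p under 0.05 by limma or edgeR in any test or alternative run, and the exception was DESeq2, which called 1 gene, Fabp2, over the 4 time points. Counts at an unadjusted p under 0.05 were small and moved. For the 24 h cosine (2 genes) the count was 1 without the trend, 0 by the rank test, 0 to 4 with a library left out (0 without ZT6 replicate 2, 4 without either library of ZT18), and 7 without both ZT0 replicate 1 and ZT18 replicate 1, a setting chosen after seeing the data. Over the 4 time points (2 genes) it was 1 with quantile normalisation, with scaling outside the mitochondrial genome, without the trend and with the replicate block, 1 to 5 with a library left out (5 without ZT18 replicate 2), and 5 without both replicate 1 libraries. For ZT12 against ZT0 (2 genes) it was 1 with quantile normalisation and with the replicate block, 0 with scaling outside the mitochondrial genome, without the trend, with only the 4 libraries compared and without both ZT0 replicate 2 and ZT12 replicate 1, 0 to 3 with a library left out (0 without ZT0 replicate 2 or ZT6 replicate 2), and 6 without both replicate 1 libraries. With a library left out, ZT6 against ZT0 (2 genes) gave 0 to 5 (0 without ZT0 replicate 1 or either library of ZT6, 5 without ZT0 replicate 2), ZT12 against ZT6 (3 genes) 1 to 5 (1 without ZT6 replicate 1 or ZT12 replicate 1, 5 without either library of ZT18), ZT18 against ZT0 (1 gene) 1 to 6 (6 without ZT18 replicate 1, 3 without ZT18 replicate 2), ZT18 against ZT6 (2 genes) 0 to 8 (0 without ZT6 replicate 2, 1 without ZT6 replicate 1, 5 without ZT18 replicate 1, 8 without ZT18 replicate 2) and ZT18 against ZT12 (2 genes) 1 to 9 (1 without either library of ZT6 or ZT12 replicate 1, 6 without ZT18 replicate 1, 9 without ZT18 replicate 2). The cause was not tested. Whether the replicate numbers pair the libraries is not stated. The correlations of same-numbered deviations between time points lay between -0.29 and 0.22, which cannot show whether libraries were handled together. The block changed no call at an adjusted p. The lowest value of any of the 32 genes, 11.1 normalised counts of Angptl4, lay above what a count of 0 allows in each library (2.41 to 3.70).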
